A study of Mus musculus with 50 samples.

Results

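Livers of mouse fetuses whose mothers had been given a low dose of perfluorooctanoic acid (PFOA) were compared with livers of control fetuses. The 10 arrays concerned, of 50 in the series, were chosen by the sample titles. PFOA1 denotes 5 fetal livers from CD-1 dams, an outbred strain, gavaged daily with PFOA at 1 mg/kg from embryonic day 1.5 to 17.5, when the tissue was taken. The controls are 5 fetal livers from CD-1 dams on the 0 mg/kg arm of the same schedule; the vehicle they received is not named in the labels. Values of 5 other groups on that schedule are set beside them: 6 fetal livers at 5 mg/kg PFOA (PFOA5), 5 at 2 mg/kg and 4 at 10 mg/kg of the related compound GenX (GenX2, GenX10), and livers of 5 dams at 1 mg/kg PFOA and of 5 control dams. The labels describe the fetuses as female, picked at random within a litter where several were at hand, so each array stands for 1 fetus; they do not say which fetus belongs to which dam. Total RNA of snap-frozen tissue was amplified and hybridised to Affymetrix whole-transcript arrays. A whole fetal liver holds blood-forming cells as well as hepatocytes, and in such bulk RNA fewer cells of a type and less RNA per cell cannot be told apart.

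PFOA is a persistent perfluorinated surfactant that crosses the placenta, and in rodent liver it activates the nuclear receptor PPARα. PPARα pairs with a retinoid X receptor, binds direct repeats spaced by 1 base (DR1 elements) and switches on genes of fatty acid uptake, activation and breakdown. In the adult liver the pathway serves fasting, when fatty acids are oxidised in peroxisomes and mitochondria and made into ketone bodies. The fetal liver lives mainly on maternal glucose and is also an organ of blood formation, and its oxidative programme normally rises around birth.

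The promoters of genes that rose are shown first because the direct repeat is the best known route from PPARα to these genes. Each sequence runs 5′ to 3′ on the gene's strand from 250 bases before to 50 bases after the annotated start, from RefSeq on GRCm38.p6. Capitals mark the match closest to the direct repeat, AGGTCA written out again after 1 free base, searched on both strands. Cyp4a32 (chr4:115600688-115600987, plus strand) and Acot2 (chr12:83987611-83987910, plus strand) were taken because they were among the largest rises of the fatty acid genes, and Fabp1 (chr6:71199629-71199928, plus strand) was added after the search because its match was the closest among the called genes of those lists.
Fabp1: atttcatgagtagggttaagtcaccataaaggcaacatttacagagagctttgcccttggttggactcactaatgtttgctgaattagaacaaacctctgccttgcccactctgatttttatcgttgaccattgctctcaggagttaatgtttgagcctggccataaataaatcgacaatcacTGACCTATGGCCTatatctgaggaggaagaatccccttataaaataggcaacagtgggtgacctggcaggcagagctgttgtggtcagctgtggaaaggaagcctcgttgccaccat
Cyp4a32: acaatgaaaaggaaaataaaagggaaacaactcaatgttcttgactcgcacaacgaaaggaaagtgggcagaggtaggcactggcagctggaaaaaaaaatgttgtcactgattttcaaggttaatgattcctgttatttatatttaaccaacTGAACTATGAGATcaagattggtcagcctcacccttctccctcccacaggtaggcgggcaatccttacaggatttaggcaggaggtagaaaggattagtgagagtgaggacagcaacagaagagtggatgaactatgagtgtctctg
Acot2: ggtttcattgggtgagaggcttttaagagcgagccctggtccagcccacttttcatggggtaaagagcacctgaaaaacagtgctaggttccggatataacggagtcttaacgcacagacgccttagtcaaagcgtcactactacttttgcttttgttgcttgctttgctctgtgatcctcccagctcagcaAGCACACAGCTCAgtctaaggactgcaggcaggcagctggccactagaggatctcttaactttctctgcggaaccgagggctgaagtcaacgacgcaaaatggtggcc
Positions count from the annotated start. The Fabp1 match begins at -67, reads on the minus strand and has 1 mismatch to the repeat. The matches of Cyp4a32 (from -97, minus strand) and Acot2 (from -58, plus strand) have 3 mismatches each. Ehhadh and Acot1, also taken for their large rises, had no match within 3 mismatches. Of the 51 genes called higher in the 4 fatty acid lists described below, 39 had a promoter in the table. A match with at most 3 mismatches was found for 15 of the 39 (38.5%), against 27.26% of the 27025 genes with a promoter. With at most 2 mismatches the count was 5 (12.8%), against 4.4% of all genes. A match describes letters only, and enhancers lie outside these windows.

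One control array went against its label. Control replicate 3 had a log2 signal of 5.39 for Xist, the RNA that coats an inactive X chromosome, against 10.52 to 10.94 on the PFOA1 arrays and 10.62 to 11.04 on the other controls. The same array had 6.49 for Eif2s3y, 6.57 for Uty and 5.66 for Kdm5d, genes of the Y chromosome whose signals were at most 4.06 on the other 9 arrays. The count of called genes and the counts of the main lists are given with and without that array; comparisons of PFOA5 and GenX with control are given only with it. Of the genes called, 4 lay on the X chromosome and 0 on the Y. Background also differed between the groups: the 95th percentile of the negative control probes was 7.71 to 7.80 on the PFOA1 arrays and 7.86 to 7.94 on the controls, and 5465 to 5766 genes lay above it, against 4789 to 5219. Neither range overlapped (exact permutation test, two-sided p = 0.0079 each, the smallest value 5 against 5 arrays can give). A gene is called below background, or dim, in a group where no array of that group passed that percentile.

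Exposure at the lower dose raised far more genes than it lowered. Of 30743 genes tested, 293 (0.953%) passed an adjusted p of 0.05 (limma, Benjamini-Hochberg over all genes), 259 of them higher in PFOA1 (0.842%) and 34 lower (0.111%). Among the 5625 genes above background on at least 4 of the 10 arrays 181 were higher (3.22%) and 2 lower (0.0356%); genes bright in PFOA1 alone pass this filter more easily, since 56 called genes were dim in control only and 3 in PFOA1 only, and the background limit is lower on the PFOA1 arrays. The median log2 difference of all genes was 0.02. Of the 293, 155 differed at least 1.5-fold and 68 at least 2-fold, and 87 were dim in both groups. In 244 of the 293 the groups did not overlap, against 682 genes, or 2.22%, in the whole table. Without control replicate 3 there were 245 calls, 229 of them among the 293. With the negative control percentile as a covariate, an alternative added after the data were seen, there were 201, 182 of them shared, with 167 higher and 34 lower. The plot of differences against signal shows the asymmetry.

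**Figure D1:**
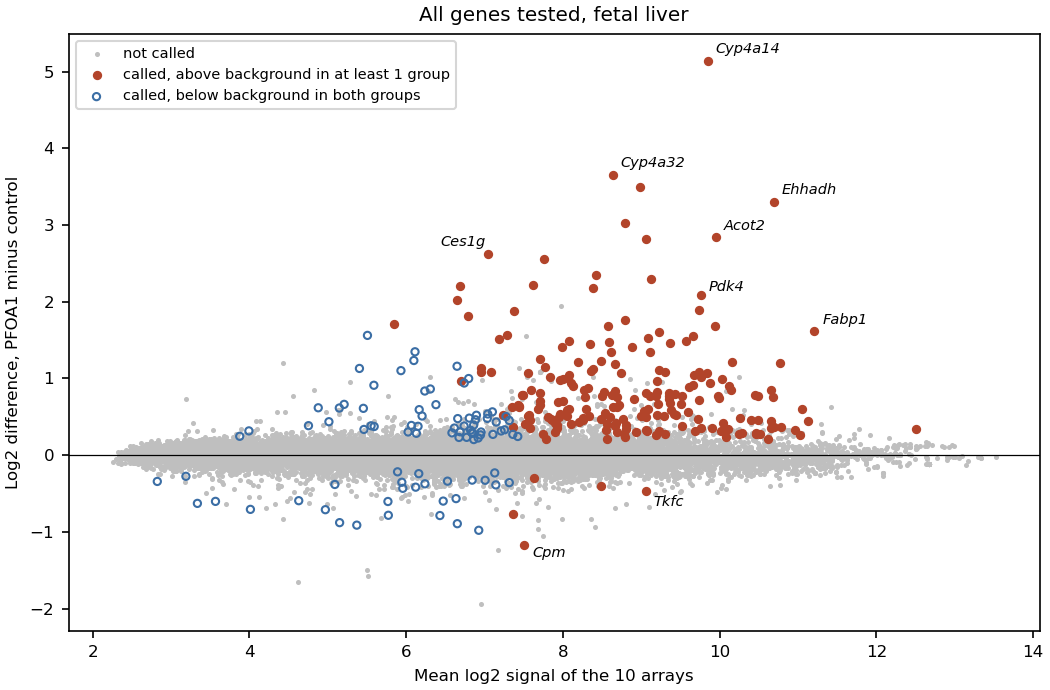
Log2 difference between PFOA1 and control fetal livers (vertical axis) against the mean log2 signal of the 10 arrays (horizontal axis), 1 point per gene. Filled points are called genes above background in at least 1 group and open points are called genes dim in both groups; the filled points lie almost all above 0, with Cyp4a14 highest at 5.14.

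The largest single change belonged to microsomal omega oxidation, in which Cyp4 enzymes hydroxylate the far end of a fatty acid. Of the 16 genes of this list measured, 8 were called higher (against 0.842% of all genes) and 0 lower, with a median log2 difference of 0.32 against 0.02 over all genes. Cyp4a14, the classical PPARα target of rodent liver, had log2 signals of 12.47, 12.10, 12.55, 12.44 and 12.55 on the PFOA1 arrays, against 5.76, 6.95, 7.13, 9.19 and 7.39 on the controls. The PFOA1 livers lay close together while the controls spread widely, and only control replicate 4 passed background. The difference was 5.14 (95% CI 4.46 to 5.82), or 35.3-fold, at an adjusted p of 2.7e-10. That fit shares 1 estimate of spread among all fetal groups, while the SD was 0.19 in PFOA1 and 1.23 in controls. The interval and the p may therefore be too small, and under the alternatives the limma adjusted p was at most 8.4e-05. Cyp4a32, dim in every control, averaged 10.47 ± 0.45 in PFOA1 and 6.81 ± 0.76 in controls (SD, n = 5 each), at least 5.94-fold higher. Cyp4a31 had 10.73 ± 0.44 in PFOA1 and 7.23 ± 0.85 in controls, with 1 control above background.

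Cyp4a12a and Cyp4a12b, the enzymes of male-biased arachidonic acid hydroxylation in adult mice, were 3.20-fold and 3.73-fold higher in PFOA1 livers, with adjusted p of 0.0066 and 0.0024 and with Cyp4a12b above background in 4 controls. Cyp4a12a averaged 10.78 in PFOA1 and 9.10 in controls. These Cyp4a genes are near copies of one another, so their probes may share target and their rises are not separate observations. Outside the Cyp4a group, Aldh3a2, which oxidises the fatty aldehydes made next, had 9.78 ± 0.20 in PFOA1 and 8.67 ± 0.24 in controls (2.16-fold). Cyp4f15 was at least 1.47-fold higher. No other Cyp4f gene of the list was called. The count of 8 was the same without control replicate 3 and was 7 with the negative control covariate.

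Peroxisomal fatty acid oxidation, which shortens very long and branched chains, rose as a group: 16 of 28 measured genes were called higher and 0 lower, with a median difference of 0.59. Ehhadh, the bifunctional enzyme of the middle steps, had 12.45, 12, 12.49, 12.33 and 12.46 in PFOA1, against 8.59, 9.07, 9.37, 9.47 and 8.72 in controls. The lowest exposed liver lay far above the highest control. The difference of 3.30 (CI 3.04 to 3.56), or 9.87-fold, had the smallest adjusted p of the table, 1.2e-14. Acaa1b, a thiolase of the last step, averaged 10.28 ± 0.34 in PFOA1 and 7.98 ± 0.13 in controls (4.93-fold, with 3 controls above background), and its sister Acaa1a rose 2.13-fold, with 2. Hsd17b4, the other multifunctional enzyme, had 10.28 ± 0.18 in PFOA1 and 9.19 ± 0.17 in controls (2.13-fold).

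Transport into and out of the organelle moved too. Abcd3, an importer of long and branched acyl-CoAs, rose 2.80-fold and Crot, which hands shortened chains to carnitine, 2.31-fold. Pex11a, which promotes peroxisome division, averaged 7.94 in PFOA1 and 6.43 in controls, where it was dim. It was the only one of 14 measured peroxins (Pex genes) called, and 8 of the 14 were dim in both groups. The thioesterase Acot3 was at least 2.20-fold higher and Acot4 at least 1.12-fold. The members not called had adjusted p above 0.05 and cannot be said to be unaltered. Of this list, 13 genes were called higher without control replicate 3, and 13 with the negative control covariate.

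Mitochondrial oxidation had the largest share called of the 4 fatty acid lists, 16 of 21 measured genes higher and 0 lower, with a median of 0.77 and no member below 0. The carnitine shuttle carries acyl chains across the inner membrane, and each of its steps rose. Cpt1b, the muscle form of the entry enzyme, was dim in all controls and had 9.50, 9.27, 9.32, 9.25 and 10.04 in PFOA1, against 7.36, 7.07, 7.34, 7.56 and 7.19 in controls. It was at least 2.995-fold higher, at an adjusted p of 4.8e-08. The liver form Cpt1a moved less, averaging 9.72 ± 0.22 in PFOA1 and 8.996 ± 0.26 in controls (1.66-fold, adjusted p = 0.022), and its call was lost under 5 of 24 alternatives. Slc25a20, the carnitine carrier, rose 2.88-fold and Cpt2, which reforms acyl-CoA inside, 2.53-fold.

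Enzymes of the spiral itself rose by unequal amounts. Acadl and Acadvl, dehydrogenases for long chains, were 1.804-fold and 1.92-fold higher. Hadha and Hadhb, the subunits of the trifunctional protein, were 1.69-fold and 1.71-fold higher. Eci1 and Decr1, needed for unsaturated chains, rose 2.76-fold and 2.11-fold, and Etfdh, which passes the electrons on, 1.95-fold. Acot2, the mitochondrial thioesterase, had 11.45, 11.16, 11.23, 11.19 and 11.87 in PFOA1, against 8.40, 8.51, 8.53, 8.73 and 8.52 in controls. All controls lay close together and the groups were far apart, at 7.16-fold. Bdh1, of ketone body metabolism, was 1.58-fold higher. Without control replicate 3, 17 genes of the list were called higher, and 14 with the negative control covariate.

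**Figure D2:**
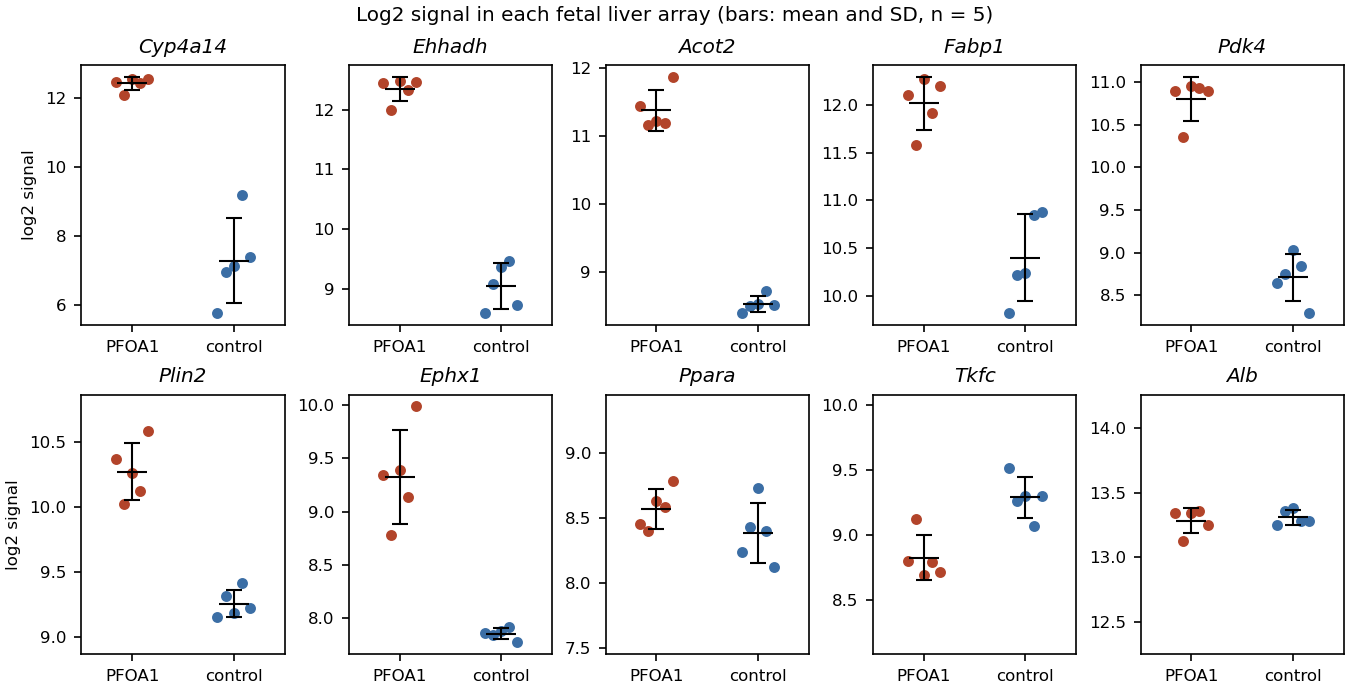
Log2 signal of 10 genes on each array, PFOA1 on the left and control on the right of each panel, with mean and SD (n = 5). The vertical scales differ between panels; Cyp4a14, Ehhadh, Acot2, Fabp1, Pdk4, Plin2 and Ephx1 show no overlap, Tkfc is lower in PFOA1, and Ppara and Alb overlap.

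Among 31 genes of lipid handling that respond to PPARα, 11 were called higher and 0 lower (median 0.41). Pdk4, which turns pyruvate away from oxidation, had 10.89, 10.35, 10.95, 10.93 and 10.90 in PFOA1, against 8.64, 8.75, 9.03, 8.84 and 8.29 in controls, a 4.27-fold rise. Vnn1, which releases pantothenic acid and cysteamine, rose 8.12-fold with 1 control above background. Acot1, the cytosolic thioesterase, rose 7.04-fold with 2 controls above background; it is a close copy of Acot2 and Acot3, so their signals may not be separate. Fabp1, the liver's fatty acid carrier whose promoter is shown above, had 12.11, 11.58, 12.27, 11.92 and 12.20 in PFOA1, against 9.82, 10.22, 10.24, 10.85 and 10.88 in controls. The ranges did not meet, and the rise was 3.06-fold.

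Uptake and storage genes rose less. Slc27a2, an acyl-CoA synthetase of very long chains, rose 2.31-fold, the synthetases Acsl5 and Acsl4 1.71-fold and 1.70-fold (Acsl4 with 4 controls above background), and the lipid droplet coat gene Plin2 2.03-fold. Angptl4, an inhibitor of lipoprotein lipase, was at least 1.37-fold higher. Some known targets were not called. The fatty acid translocase Cd36 averaged 8.07 ± 0.33 in PFOA1 and 8.03 ± 0.27 in controls, and was not called. The hormone gene Fgf21 was dim on all 10 arrays. This list had 12 calls without control replicate 3 and 10 with the negative control covariate.

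The receptors themselves were not called. Ppara had 8.45, 8.40, 8.63, 8.58 and 8.78 in PFOA1, against 8.24, 8.43, 8.73, 8.40 and 8.12 in controls, and the groups overlapped (difference 0.19, CI -0.07 to 0.44, adjusted p = 0.84). Of 18 nuclear receptors and coregulators measured, 0 were called by limma, and 3 of the 5 Ppar and Rxr genes were dim in both groups. The members of the 4 fatty acid lists were written down with earlier results of these data known, so their counts describe the pathway and are not independent support for it.

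Fatty acid synthesis rose in part. Of 19 genes, 5 were called higher and 0 lower (median 0.25). Me1, the malic enzyme that supplies NADPH, was at least 1.74-fold higher, and Acacb, the carboxylase at the mitochondrial surface, at least 1.36-fold. Scd1, the main desaturase of liver, averaged 10.36 ± 0.32 in PFOA1 and 9.62 ± 0.11 in controls (1.67-fold), and the elongase Elovl5 rose 1.76-fold. Acaca, the cytosolic carboxylase that commits carbon to the pathway, rose 1.40-fold. The count was 5 both without control replicate 3 and with the negative control covariate.

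Smaller counts were found in other metabolic lists. Oxidative phosphorylation had 5 of 26 genes called higher (Cox5b, Uqcrc1, Sdhd, Atp5o and Atp5a1), between 1.16-fold and 1.25-fold, and all 26 differences were above 0 (median 0.22). The count was 2 without control replicate 3 and 0 with the negative control covariate. Ephx1, the microsomal epoxide hydrolase, was the 1 called gene of 14 NRF2 targets, at 9.33 ± 0.44 in PFOA1 and 7.85 ± 0.05 in controls (2.78-fold, with 1 control above background). It is also a target of CAR and PXR. Of 20 CAR and PXR targets in their own list 1 was called (Aldh1a1, with 1 array above background). That call was lost under 13 of 24 alternatives, among them without control replicate 3 and with the negative control covariate. Cyp2b10, the standard readout of CAR, was dim on all 10 arrays of PFOA1 and control fetuses.

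Thyroid hormone genes had 2 calls of 10, Me1 and Serpina7. Serpina7, thyroxine-binding globulin, had 8.99, 7.88, 9.16, 8.74 and 8.89 in PFOA1, against 5.75, 6.74, 7.14, 6.54 and 6.39 in controls, where it was dim throughout. It was at least 1.79-fold higher, at an adjusted p of 3.0e-06. Apolipoproteins and lipoprotein remodelling had 3 of 17 called higher (Mttp, Pltp and Apoa2), but the count was 1 without control replicate 3 and 0 with the negative control covariate. Cholesterol synthesis and uptake had 1 of 19 (Hsd17b7, 1.69-fold). Amino acid metabolism had 3 of 20 (Hgd, Aass and Bhmt, 1.48-fold to 1.58-fold), but Bhmt lost its call under 12 of 24 alternatives and the count was 1 with only the 10 arrays fitted. Heat shock had 1 of 9, the mitochondrial chaperone Hspd1 at 1.29-fold. Complement and coagulation, with 33 genes, had 1 call each way: the mannose-binding lectin Mbl1 rose 1.61-fold, with 1 control above background, and its relative Mbl2 was called lower; without control replicate 3 there were 2 higher and 1 lower.

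**Figure D3:**
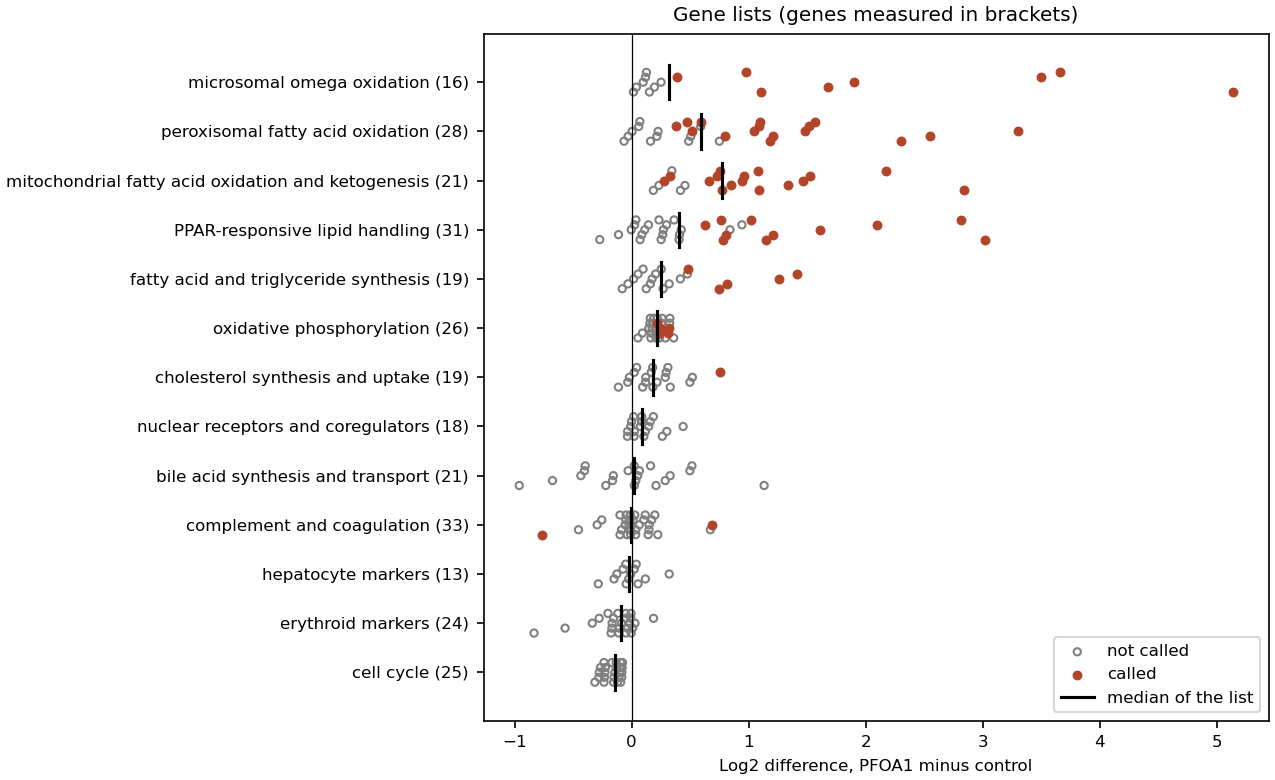
Log2 difference between PFOA1 and control (horizontal axis) for each measured gene of 13 lists, filled where called, with the list's median as a bar. The 4 fatty acid lists at the top have medians of 0.32 to 0.77, while the lists of bile acid genes, complement, hepatocytes, erythroid cells and cell cycle have medians from -0.14 to 0.02.

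Several of the largest rises lay outside fatty acid oxidation. Abhd6, a monoacylglycerol lipase that also cleaves endocannabinoids, had 9.45, 9.36, 9.66, 9.51 and 10.02 in PFOA1, against 7.46, 7.22, 7.04, 7.31 and 7.20 in controls. It was dim in all controls and at least 3.26-fold higher. Lepr, the leptin receptor, was above background on 3 of 5 PFOA1 arrays and no control, at 7.79 ± 0.51 in PFOA1 and 5.58 ± 0.23 in controls (adjusted p = 2.5e-06). Of 19 carboxylesterases, the ester-cleaving enzymes of the endoplasmic reticulum, 4 were called higher and 1 lower, all in the Ces1 cluster. Over all genes 0.842% were called higher and 0.111% lower, and 14 of the 19 were dim in both groups. Ces1g had 8.98, 8.37, 8.31, 7.97 and 8.13 in PFOA1, against 5.69, 5.61, 5.91, 5.63 and 5.82 in controls, at least 1.38-fold higher.

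The relatives of Ces1g split. Ces1d rose 3.41-fold, with 3 controls above background, and Ces1e was at least 1.34-fold higher, both named after their values were seen, as was Ces1f, which was dim in both groups. Ces1c was called lower, at 6.44 ± 0.19 in PFOA1 and 7.42 ± 0.49 in controls, dim in both. The Ces1 genes are close copies, and cross-hybridisation between them was not tested.

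Falls were small and mostly at low signal. Of the 15 largest falls with a gene name that is not a clone, a model or a small RNA, only Tkfc and Reln were above background in both groups. Tkfc, which phosphorylates dihydroxyacetone and glyceraldehyde, had 8.80, 9.12, 8.69, 8.79 and 8.71 in PFOA1, against 9.51, 9.26, 9.30, 9.07 and 9.30 in controls. One PFOA1 liver overlapped the controls, and the change was 1.38-fold at an adjusted p of 0.0088. Reln, a secreted protein made by stellate cells in liver, was 1.32-fold lower with overlap between the groups, and its call was lost under 15 of 24 alternatives.

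Others were measured in controls alone. Cpm, a membrane carboxypeptidase, had 7.19, 7.30, 6.78, 6.88 and 6.48 in PFOA1, against 8.62, 8.48, 8.31, 7.39 and 7.69 in controls. It was dim in PFOA1, above background in 3 of 5 controls, and at least 1.26-fold lower. Mbl2 was dim in PFOA1 and above background in 2 controls, at 6.99 ± 0.14 in PFOA1 and 7.75 ± 0.43 in controls (adjusted p = 0.0030). The remaining 11 were dim in both groups, so no fold is given. They include Hsd11b1, which reactivates cortisone-like steroids, at 6.21 ± 0.24 in PFOA1 and 7.10 ± 0.31 in controls (adjusted p = 2.8e-05). Akr1c6 and Akr1c20, aldo-keto reductases, Rgs2, Map2k6, Txndc16, Fam13a, F13a1, Adgrf1 and Ppp4r4 completed the list with Ces1c.

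A further 9 of the 34 falls were miRNA precursors, which the rule for named genes leaves out; they are described here after their values were seen. Of these, 8 lay between Dlk1 and Dio3 (chr12:109452485-110281097, GRCm38.p6). In this imprinted region one of the largest miRNA clusters of the mouse is expressed from the maternal chromosome. Their 5p arms are shown because every one of the 8 has one; sequences are from RefSeq, with the seed (bases 2 to 8) in capitals.
mmu-miR-379-5p: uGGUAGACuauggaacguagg
mmu-miR-329-5p: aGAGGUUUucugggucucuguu
mmu-miR-679-5p: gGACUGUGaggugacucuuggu
mmu-miR-543-5p: aAGUUGCCcgcguguuuuucg
mmu-miR-376c-5p: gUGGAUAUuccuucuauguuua
mmu-miR-376b-5p: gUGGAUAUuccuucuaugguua
mmu-miR-539-5p: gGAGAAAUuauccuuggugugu
mmu-miR-154-5p: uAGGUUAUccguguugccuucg
The 5p arms of miR-376b and miR-376c share the seed UGGAUAU, and the 8 arms held 7 seeds in all. The arrays measured precursor sequence and not these mature forms.

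All 8 precursors were dim in both groups, so their levels are given and no fold. Mir379 had 3.15, 3.04, 2.86, 2.92 and 3.15 in PFOA1, against 3.68, 3.93, 3.30, 3.78 and 3.57 in controls (adjusted p = 7.3e-04). Mir539 had 4.34, 4.30, 4.43, 4.48 and 4.12 in PFOA1, against 4.83, 5.12, 4.81, 4.82 and 5.05 in controls. Mir154, Mir679, Mir329, Mir376b and Mir376c also had no overlap, and Mir543 overlapped in control replicate 3. Of 46 precursors of the region measured, 42 had differences below 0, with a median of -0.23, and 44 were dim in both groups. Precursors outside the region had a median of 0.002, and over all genes 57.6% of differences lay above 0. Of 903 precursors tested on the array, 9 were called. The 15 other genes of the region measured, Dlk1 and Dio3 included, were not called, but only Dio3 and 3110009F21Rik had differences above 0. The largest differences of the region were those of the small nucleolar RNA genes Gm22205 and Gm24564, both without overlap. Gm22205 averaged 3.79 in PFOA1 and 5.45 in controls, dim in both (adjusted p = 0.079). Gm24564 averaged 6.56 in PFOA1 and 7.79 in controls, with 2 controls above background (adjusted p = 0.083).

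The mean log2 signal of the 8 was 3.96 to 4.24 in PFOA1, 3.96 to 4.21 in PFOA5, 3.91 to 4.36 in GenX2, 3.99 to 4.23 in GenX10 and 4.53 to 5.05 in controls. The 5 control arrays stood above all 20 exposed fetal arrays, and all comparisons with control use the same 5 livers. The 8 were picked because they were called lower in PFOA1 than in these controls. The gap between PFOA1 and control therefore follows from the choice, which also favours a gap from the other exposed groups. Without control replicate 3 all 8 remained called, and with the negative control covariate 3 did (adjusted p up to 0.19).

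**Figure D4:**
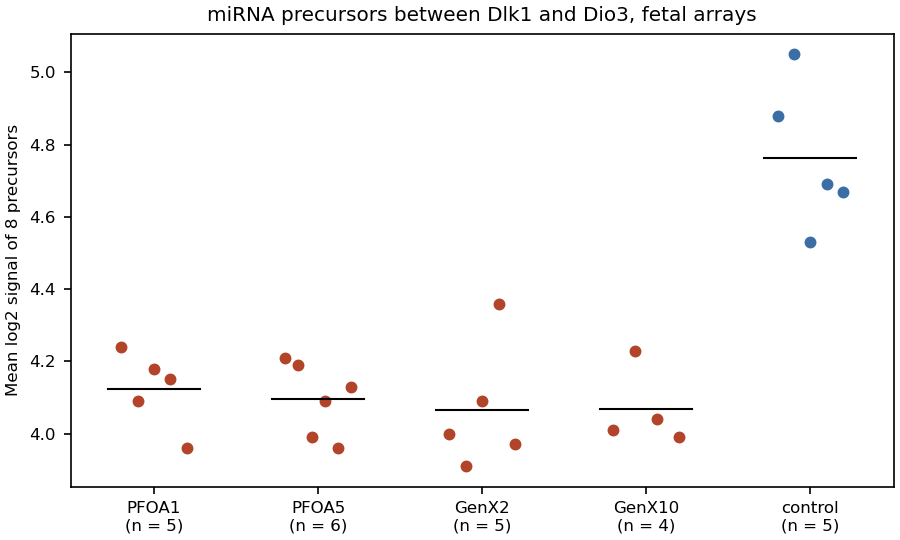
Mean log2 signal of the 8 miRNA precursors called lower, on each fetal array (points) by group, with the group mean as a line. The 8 were picked because they were called lower in PFOA1 than in these controls, so the gap between PFOA1 and control follows from the choice. The exposed groups lie between 3.91 and 4.36 and the controls between 4.53 and 5.05; all values are below background.

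Marker genes of the liver's cell types gave 2 calls in all. Albumin (Alb) averaged 13.28 ± 0.10 in PFOA1 and 13.31 ± 0.06 in controls, and alpha-fetoprotein (Afp) 12.96 ± 0.06 in PFOA1 and 12.98 ± 0.09 in controls. Both lists of hepatocyte genes, adult and fetal, had 0 calls of 13 and of 12. The erythroid list had 0 of 24, with a mean level of 8.59 to 9.39 in PFOA1 and 8.92 to 9.37 in controls. Markers of granulocytes, macrophages, megakaryocytes, lymphoid cells, mast cells, endothelium, cholangiocytes, pancreatic acini and intestine had 0 calls each. The macrophage list's mean was 7.19 to 7.36 in PFOA1 and 7.31 to 7.47 in controls, and its receptor gene Csf1r had 8.24 ± 0.04 in PFOA1 and 8.49 ± 0.06 in controls without overlap, but no call (adjusted p = 0.22). Stem cell markers had 1 call (Hlf, dim in both) and stellate markers 1 (Reln), and both counts were 0 without control replicate 3.

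Other functions gave no calls or single ones. Cell cycle genes had 0 of 25 called. All 25 differences lay below 0 (median -0.14), but the median was 0.008 with the mean of the erythroid list as a covariate. The cell cycle list's mean was 8.18 to 8.96 in PFOA1 and 8.55 to 9.05 in controls, with overlap. Bile acid genes had 0 of 21 called. Cyp7a1, the rate-limiting enzyme of bile acid synthesis, had 7.45, 6.40, 8, 7.47 and 6.69 in PFOA1, against 7.92, 8.05, 8.78, 8.04 and 8.03 in controls. Only PFOA1 replicate 3 reached the controls, but the test was not passed (difference -0.96, CI -1.60 to -0.32, adjusted p = 0.22). Glucose output, the growth hormone axis, acute phase proteins, the unfolded protein response, haem synthesis, iron handling, hypoxia, interferon response, immediate early genes and both zonation lists had 0 calls. Circadian genes had Nr1d2 called higher and Per2 lower, both dim; without control replicate 3 none was called higher.

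The higher dose was then set directly against the lower, which needs no control array. PFOA5 differed from PFOA1 in 15 of 30743 genes (0.0488%), 4 higher (0.013%) and 11 lower (0.0358%), with 2623 at an unadjusted p under 0.05. None of the 4 fatty acid lists held a call. Cyp4a14 had 12.33 to 12.74 in PFOA5, against 12.10 to 12.55 in PFOA1, a difference of 0.13 (CI -0.51 to 0.78). Ehhadh differed by 0.22 (CI -0.03 to 0.47). Acot2 differed by 0.79 (CI 0.47 to 1.10, adjusted p = 0.053), and Cpt1b by 0.62 (CI 0.25 to 1.00, adjusted p = 0.34); a missed threshold does not show equal levels.

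Of the 15 genes called, 11 were lower at the higher dose, among them enzymes known from the mature hepatocyte, but this balance rests on single arrays: without PFOA5 replicate 1 there were 16 higher and 9 lower. Cyp2e1, which oxidises ethanol and many solvents, had 6.57, 7.13, 6.75, 6.46, 6.76 and 6.88 in PFOA5, against 7.92, 8.15, 9.73, 8.53 and 9.51 in PFOA1. It was dim in PFOA5 and above background on all PFOA1 arrays, at least 1.99-fold lower, with a fitted difference of -2.01 (CI -2.53 to -1.496, adjusted p = 4.4e-04), while PFOA1 against control gave -0.15 (CI -0.69 to 0.39). Pon1, the paraoxonase of plasma lipoproteins, was dim in PFOA5 and above background on 4 PFOA1 arrays, at least 1.45-fold lower (6.998 in PFOA5 and 8.32 in PFOA1). Akr1d1, a reductase of bile acid synthesis, averaged 6.52 in PFOA5 and 7.78 in PFOA1, and Aox3, an aldehyde oxidase, 5.65 in PFOA5 and 7.22 in PFOA1, each above background on 1 PFOA1 array. Against control, PFOA1 gave -0.69, -0.22 and -1.05 for Pon1, Akr1d1 and Aox3, none of them called.

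Mbl2 was called lower again, at 6.06 in PFOA5 and 6.99 in PFOA1, dim in both. Sult1a1, Pglyrp2 and C1rb were also called lower in PFOA5, Pglyrp2 being dim in both groups. The 4 higher genes were the mitochondrially encoded ND2 (1.10), Palmd (0.52), Lpcat3 (0.45), a phospholipid remodelling enzyme, and Dab2 (7.38 in PFOA5 and 6.98 in PFOA1, dim in both). The calls of Lpcat3, Palmd, Pon1 and C1rb were lost under 18, 16, 14 and 13 alternatives. The count of 15 also moved with single arrays: it was 7, 5 and 9 without PFOA1 replicate 2, 3 and 5, and 25, 9, 8 and 6 without PFOA5 replicate 1, 3, 4 and 5. PFOA5 replicate 6 has a source name of another group, and without it the count was 12.

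The other fetal exposures were measured against the same 5 controls, so their values are only set side by side. Of the 5 GenX2 arrays, replicate 2 had 4.50 for Xist and 6.10 for Eif2s3y, against its female label, and replicate 5 has a source name of another group. Against control, Ehhadh differed by 3.30 in PFOA1, 3.52 in PFOA5, 3.51 in GenX2 and 3.55 in GenX10. Vnn1 differed by 3.02, 3.46, 3.73 and 3.80 in the same order, and Lepr by 2.21, 3.07, 3.12 and 3.45. Called genes numbered 293 in PFOA1 (0.953%), 1042 in PFOA5 (3.39%, with 2.34% higher and 1.05% lower), 2070 in GenX2 (6.73%, 3.9% and 2.83%) and 2851 in GenX10 (9.27%, 4.42% and 4.85%). In the peroxisomal list 16, 18, 17 and 17 genes were called higher, and in the mitochondrial list 16, 17, 18 and 18. Cyp2e1 differed from control by -0.15, -2.16, -2.96 and -3.18.

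The fetal response was also set against that of dams at the same dose, as the difference of the 2 effects in 1 fit of all 50 arrays. It was called for 55 genes (0.179%), 40 more positive in the fetus (0.13%) and 15 more negative (0.0488%), and for 53 without control fetus replicate 3. Maternal PFOA1 against maternal control gave 10 calls (0.0325%), 9 higher (0.0293%) and 1 lower (0.00325%). Ehhadh rose by 3.30 in fetuses and 1.39 in dams, a difference of 1.91 (CI 1.41 to 2.41). Its level was 12 to 12.49 in exposed fetuses and 10.54 to 12.36 in exposed dams, against 8.59 to 9.47 in control fetuses and 10.36 to 10.59 in control dams. The control fetuses lay below the control dams, and the exposed groups overlapped.

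Other genes were called in fetal liver, not in the dam, and differed between them by the test of the difference. Cpt1b had a fetal effect of 2.17 and a maternal one of 0.08, and in dams it was dim, at 6.36 to 6.54 with PFOA and 6.26 to 6.43 without. Abhd6 gave 2.35 and 0.25, Lepr 2.21 and 0.31 (dim in dams), and Cpne5, a calcium-dependent phospholipid-binding protein, 2.02 and 0.04 (dim in dams). Ces1g gave 2.62 in fetuses and -0.24 in dams, and its controls lay at 5.61 to 5.91 in fetuses and 9.99 to 10.75 in dams. Fetal minus maternal differences were 2.09 for Cpt1b, 2.10 for Abhd6, 1.90 for Lepr, 1.98 for Cpne5 and 2.86 for Ces1g. Of the fatty acid lists, 5 peroxisomal, 8 mitochondrial, 2 omega oxidation and 2 lipid handling genes had a larger fetal effect, and 0 a smaller one. These counts and the maternal calls include exposed dam replicate 1, described below, which lay at control level for Cyp4a14 and Ehhadh. They are given only with that dam, which lowered the maternal effects of such genes.

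In the opposite direction, Fabp5, a fatty acid binding protein of skin and fat, gave -0.11 in fetuses and 0.85 in dams, where it was dim with and without PFOA (7.01 and 6.16). Pdk4 rose in both, by 2.09 and 1.93, with a difference of 0.16 (CI -0.61 to 0.94). Cyp4a14 gave 5.14 and 2.90, and that difference of 2.24 (CI 0.74 to 3.73) was not called. One exposed dam, replicate 1, lay at control level: it had 8.55 for Cyp4a14 and 10.54 for Ehhadh, against 12.39 to 12.55 and 11.94 to 12.36 in the other 4. For Pdk4 that dam had 7.11, against 9.47 to 9.78 in the other 4 and 6.73 to 7.90 in control dams. It thus lowered the maternal value of 1.93, and the order of the fetal and maternal Pdk4 rises rests on including it. Without it the Ehhadh difference was 1.58 (adjusted p = 1.8e-08) and 73 genes were called, and the difference for Tff3, an intestinal mucus peptide, was no longer called (-1.24, adjusted p = 0.064); that call was lost under 17 alternatives in all.

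**Figure D5:**
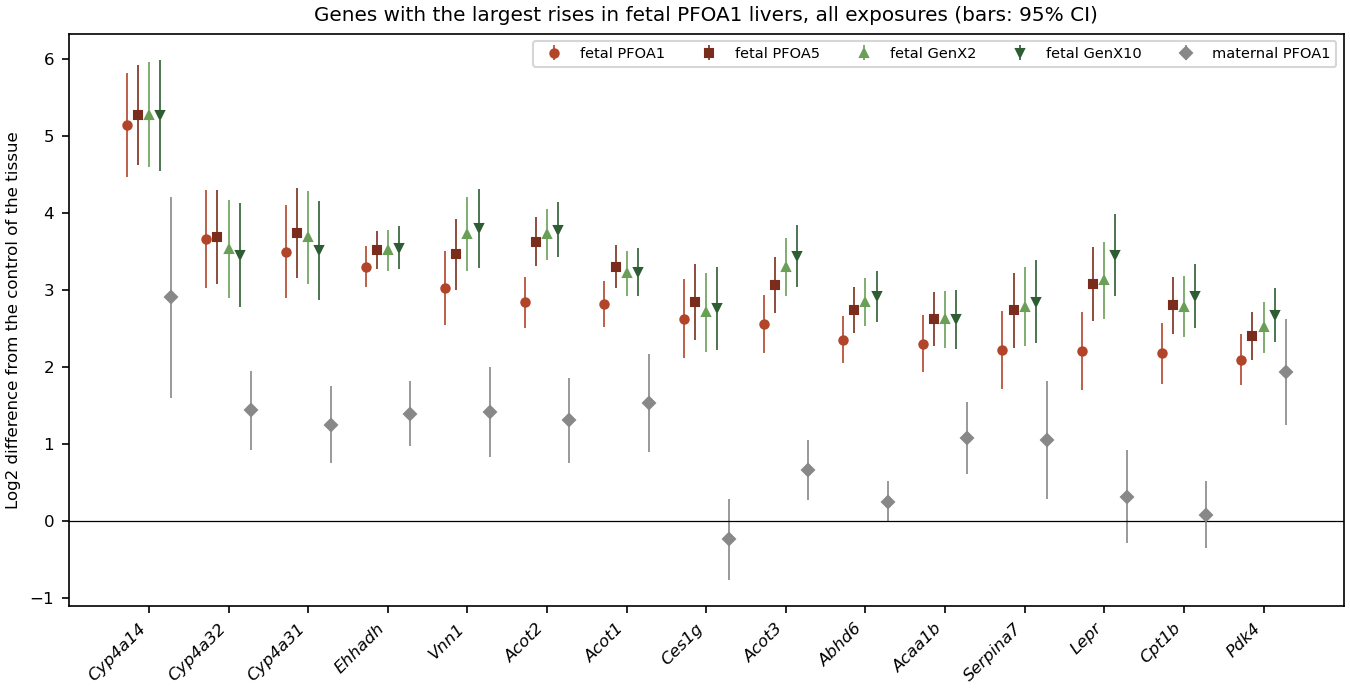
Log2 difference from the control of the same tissue, with 95% CI, for the 15 genes with the largest rises in fetal PFOA1 livers, for the 4 fetal exposures and for dams at the lower PFOA dose. The fetal exposures share their controls. Their values for Cyp4a14 run from 5.14 to 5.27 and those for Lepr from 2.21 to 3.45. The maternal value lies below the fetal PFOA1 value for each of the 15, most closely for Pdk4 (2.09 in fetuses and 1.93 in dams). The 15 were picked for their large rises in fetal PFOA1 livers, and that choice favours a lower maternal value. The maternal values include exposed dam replicate 1, which had 7.11 for Pdk4, against 9.47 to 9.78 in the other exposed dams. The order for Pdk4 rests on including that dam.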

How the data were processed

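Total RNA of 50 maternal and fetal livers was measured on whole-transcript arrays; per the labels' protocols, RNA integrity numbers were above 5.0. The authors deposited log2 signals made with RMA on mm10, per the submitters' processing notes, which give no versions. RMA values are relative and compressed near background, and precision is set by how many arrays there are. Of 72688 features, 65956 were transcript clusters and 5222 negative controls. Among 32750 annotated probes, 30604 carried a single symbol and 612 more could be traced to a single gene, while 1534 that named more than 1 gene were dropped; the brightest probe stood for each of 30743 genes. Some genes are not reported here.

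Groups were compared with limma 3.58.1 (R 4.3.3; lmFit, eBayes, two-sided) in 1 fit of the 25 fetal arrays, or of all 50 for fetal minus maternal effects, and called at an adjusted p of 0.05 (Benjamini-Hochberg). P-values measure the spread between these livers. Background is the 95th percentile of an array's negative controls. For a gene dim in 1 group, "at least N-fold" sets the brighter mean against the mean of that percentile; genes dim in both get no fold. The scripts were tested on simulated data. Of 754 genes in 43 lists 666 were measured. Members and lists were chosen with earlier results of these data known. Named genes are the up to 15 largest called rises and falls with all PFOA1 arrays on one side of the control mean, up to 8 each way for the other comparisons, up to 5 called members a list, and a few anchors, without models, clones, small RNAs, receptor families or segments; beyond these, the Ces1 genes other than Ces1c and Ces1g, the miRNA precursors, further called list members and the genes of the closing observations were named after their values were seen. Replicate numbers did not pair the samples: same-numbered PFOA1 and control arrays correlated between -0.31 and 0.59. Alternatives changed normalization, probe choice, weights, covariates, filters and arrays left out.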

Additional observations from a re-analysis of the deposited data

Results flagged for a closer look

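Levels of 77 genes named in the text were examined for single arrays that lie apart within their group, which chance gives in about 1 of 20 groups; 11 of 154 gene and group pairs showed one. PFOA1 replicate 2 was low for Cyp4a14 (12.10), Pdk4 (10.35) and Pank1 (8.33) and high for Tkfc (9.12), in each case toward the controls. PFOA1 replicate 5 was low for Afp (12.86) and Mir679 (5.72) and high for Pex11a (8.77). Control replicate 3 stood apart for Xist (5.39), Eif2s3y (6.49) and Cyp7a1 (8.78), and control replicate 2 for Mir376b (4.42).

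The effect of PFOA at the lower dose differed between fetal and maternal liver by the test of the difference itself. Fetal minus maternal log2 differences were 2.86 for Ces1g, 2.25 for Cyp4a31, 2.22 for Cyp4a32, 2.10 for Abhd6, 2.09 for Cpt1b, 1.98 for Cpne5, 1.91 for Ehhadh and 1.90 for Lepr. They were -1.31 for Tff3, whose call was lost under 17 alternatives, -1.14 for Cpm, -0.95 for Fabp5, -0.84 for Hsd11b1, -0.75 for Map2k6, -0.60 for Rgs2, -0.46 for Txndc16 and -0.44 for F13a1. Map2k6, Rgs2, Txndc16 and F13a1 were dim in every group compared, and Hsd11b1 in both fetal groups. Cpt1b, Cpne5, Lepr, Cpm and Fabp5 were dim in both groups of dams. All these values include exposed dam replicate 1, which lay at control level for Cyp4a14 and Ehhadh.

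Transcript clusters that the annotation used here pairs with no gene were fitted apart: of 33206, 37 (0.111%) were called between PFOA1 and control, 27 higher and 10 lower, of which 11 of the higher and 1 of the lower lay above background on at least 4 arrays.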

How the results depend on the processing

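No alternative changed the direction of a called gene named in the text. The count of 293 between PFOA1 and control was 155 with a 1.5-fold minimum, and lay between 201 and 390 under the other alternatives and between 200 and 315 leaving out 1 array at a time. Arrays centred on their medians gave 213 higher and 43 lower. The replicate block gave 272; the replicate numbers do not pair the samples (only controls 3 and 5 were best matched by their own number). Of 102 called genes followed, 58 kept their call under every alternative run for them (24, or 23 for genes dim on most arrays, which the filter on dim genes leaves out); Atp5a1, Nr1d2, Ppp4r4, Akr1c6 and Reln lost theirs in 15 to 17. The count of 15 between PFOA5 and PFOA1 was 54 with array weights (25 higher and 29 lower), 8 with a 1.5-fold minimum, 27 with the erythroid covariate, 9 with only the arrays compared, and 5 to 25 leaving out 1 array. The count of 55 for fetal minus maternal effects stayed within 37 to 74. Differences close to 0 turned sign: Alb was 0 with quantile normalization repeated and 0.01 without PFOA1 replicate 2; Afp was 0 with quantile normalization repeated and without PFOA1 replicate 5, and 0.01 with the erythroid covariate. Cd36 lay between -0.06 and 0.14 leaving out 1 array, and was -0.01 with the negative control covariate and -0.04, -0.02 and -0.06 without control replicate 4, PFOA1 replicate 1 and PFOA1 replicate 4. The cause of these changes was not tested. Many of the falls lay near background, where signals are compressed.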

Other observations

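Genes outside the lists that were called higher, picked here after their values were seen, include other steps of fatty acid and branched-chain amino acid use. Slc22a5, the carnitine importer of the plasma membrane, averaged 7.63 in PFOA1 and 6.54 in controls, with 1 PFOA1 array and no control above background, and Pank1, which makes coenzyme A from the pantothenate that Vnn1 releases, rose 1.83-fold with 3 controls above background. Aqp3, a channel for water and glycerol, averaged 8.83 in PFOA1 and 7.34 in controls and was at least 1.91-fold higher. Of 11 aquaporins measured, Aqp3 and Aqp7 were called higher, against 0.842% of all genes. Of the 11, 7 were dim in both groups, Aqp7 among them. Ephx2, the soluble epoxide hydrolase found partly in peroxisomes, rose 3.05-fold. Lonp2, the peroxisomal protease, rose 1.71-fold, and Pxmp4, a peroxisomal membrane protein, 1.86-fold. Bckdhb, Pcca and Ppm1k, of branched-chain amino acid breakdown, were 1.52-fold, 1.42-fold and 1.73-fold higher, with overlap between the groups for Pcca and Ppm1k, each above background in 4 controls and each losing its call under more than 12 of 24 alternatives (14 for Pcca, 13 for Ppm1k).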
